A study of Mus musculus with 6 samples.

Results

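Polycomb repressive complex 1.6 (PRC1.6) was examined through 10 subunit genes in mouse embryonic stem cells sorted by a reporter of the two-cell-like state. The genes were Pcgf6, Mga, Max, E2f6, L3mbtl2, Rnf2, Ring1, Rybp, Yaf2 and Cbx3, taken by name from a comparison table of 17110 genes. All 10 had 1 row each, and all 10 gene identifiers also occurred in the deposited table of counts.

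The cells were of the line called TG2A in the labels, an embryonic stem cell line whose genotype is given as MERVL::Fluorescent protein. MERVL is a retroviral element of the mouse genome, switched on in the two-cell embryo and in rare stem cells in culture. Both groups carried the reporter and grew with serum and leukemia inhibitory factor. Fluorescence-activated sorting gave 3 DsRed2-positive and 3 DsRed2-negative samples, collected on different dates, and polyadenylated RNA was sequenced. No second clone or line is named, so the groups represent 1 reporter line.

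PRC1.6 is a variant Polycomb complex that silences germline genes in embryonic stem cells, and its loss is known to raise germline and two-cell-like transcription. MGA with MAX reads the E-box, and E2F6 with a DP partner reads E2F sites, which brings the complex to its target promoters. The E3 ligases RING1 and RNF2 (RING1A and RING1B) work with PCGF6 to ubiquitinate histone H2A, RYBP or YAF2 binds the ligase, and L3MBTL2 and CBX3 (HP1γ) bind chromatin.

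Only the authors' comparison was used, because the columns of the table of counts carry run, lane and barcode names that match no sample. Values per sample and depth per library are therefore not analysed here, and each fold change stands with the authors' standard error (SE). The authors' deposited table names neither the groups nor the numerator. A positive or negative sign below is the deposited sign, and which sorted population it favours is unknown. The labels give only the sorted groups, and the comparison was read as the one between them. The reporter state could not be checked on its own genes, since 4 of 24 listed two-cell genes had a row. All 4 were positive in the authors' deposited table, and 1 of them, Calcoco2, had a DESeq2 adjusted p under 0.05, the threshold used throughout, which 30.5% of all genes passed. Calcoco2 had a log2 fold change in the authors' deposited table of 3.10 with an SE of 0.14 (DESeq2 adjusted p 3.28e-107). Of 15 pluripotency markers with a row in the authors' deposited table, 11 were positive past the threshold and 0 negative, against 14.6% and 15.9% of all genes. Trophectoderm markers were negative past the threshold in 7 of 10 cases and fibroblast markers in 5 of 9, with 0 and 1 positive in the authors' deposited table, against the same shares of all genes. Primitive endoderm markers gave 1 positive and 2 negative calls among 7 in the authors' deposited table. The part of other cell types in the subunit values was not tested, and in bulk RNA a change in the share of a cell type and a change in RNA per cell cannot be told apart.

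The subunits did not share 1 direction. In the authors' deposited table, 5 of the 10 were positive at a DESeq2 adjusted p under 0.05 (Mga, L3mbtl2, Pcgf6, Max and Rybp), 2 were negative (E2f6 and Yaf2) and 3 did not pass (Rnf2, Ring1 and Cbx3). The threshold was passed by 30.5% of all genes in the authors' deposited table, 14.6% in the positive and 15.9% in the negative direction. In the authors' deposited table, 6 subunits had a positive fold change before any test, against 51% of all genes, and the subunits' median was 0.16 on the log2 scale, against 0.0097 over all genes. By size, the 2 negative subunits stood farthest from 0 and the 5 positive ones lay between 0.20 and 0.53 on the log2 scale in the authors' deposited table. The authors' own call, which also asks for an absolute log2 fold change over 0.5, marked 1 subunit up (Mga) and 2 down in the authors' deposited table, where 9.4% of all genes were up and 12.1% down. At an adjusted p under 0.01, which 22.9% of all genes passed in the authors' deposited table, the same 3 subunits remained. With an absolute log2 fold change over 1 at the first threshold, 1 subunit (Yaf2) remained, against 13.3% of all genes in the authors' deposited table.

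**Figure D1:**
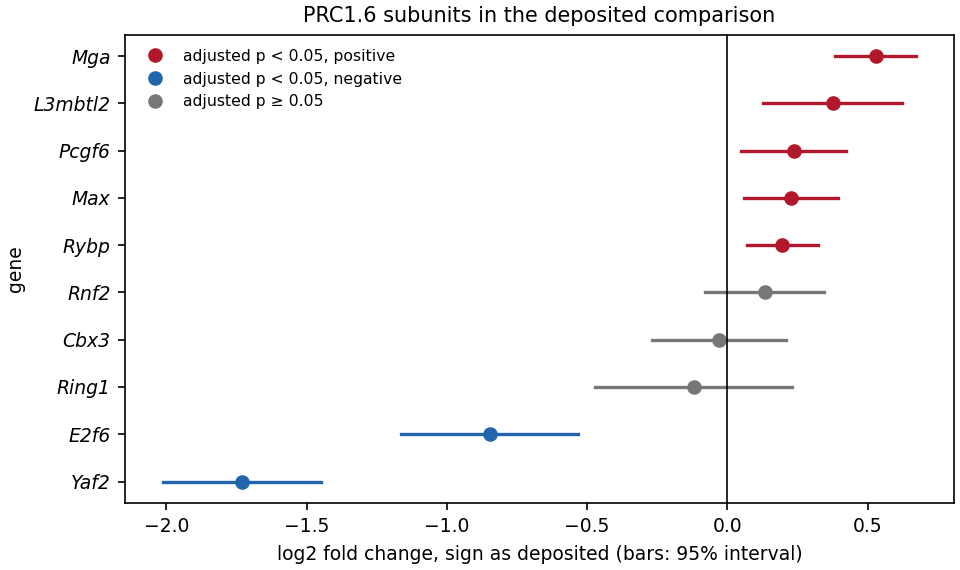
Log2 fold change of each PRC1.6 subunit (horizontal axis, sign as deposited) by gene (vertical axis), with bars for the 95% interval from the authors' standard error. Yaf2 at -1.73 and E2f6 at -0.85 lie left of 0, and the 5 positive genes past the threshold lie between 0.20 and 0.53.

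Among the DNA-binding subunits, Mga and E2f6 had opposite signs. Mga (ENSMUSG00000033943) encodes the large scaffold protein that carries both a T-box and a basic helix-loop-helix domain. Its log2 fold change in the authors' deposited table was 0.53 with an SE of 0.074 (DESeq2 adjusted p 1.53e-11), a fold of 1.44 with a 95% interval from 1.31 to 1.59. By p-value Mga ranked 693 of 17110 genes in the authors' deposited table, while by absolute fold change it ranked 5477. The change was thus small and measured tightly.

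Max (ENSMUSG00000059436), the obligate partner of MGA and of the MYC and MXD proteins, had a log2 fold change of 0.23 with an SE of 0.085 in the authors' deposited table (DESeq2 adjusted p 0.0278). Its fold of 1.17 had a 95% interval from 1.04 to 1.31. On the log2 scale the interval of Max ended at 0.39 and that of Mga began at 0.38, and the difference between both genes was not tested.

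E2f6 (ENSMUSG00000057469) encodes an E2F family member that lacks the transactivation domain and represses. Its log2 fold change in the authors' deposited table was -0.85 with an SE of 0.16 (DESeq2 adjusted p 1.79e-06). The level on the lower side was 0.556 of that on the other, with a 95% interval from 0.446 to 0.692. The SE of E2f6 was above the median of 0.12 over the 4259 genes of the authors' deposited table whose mean count was within a factor of 2 of its own, so this gene was measured less tightly than most genes of like level.

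The genes of both ligases fell short of the threshold, while Pcgf6 passed it. Rnf2 (ENSMUSG00000026484), the main H2A ligase of these cells, had a log2 fold change of 0.13 with an SE of 0.11 in the authors' deposited table (DESeq2 adjusted p 0.394) and a 95% interval from -0.081 to 0.35. Ring1 (ENSMUSG00000024325), its paralog, had -0.12 with an SE of 0.18 in the authors' deposited table (DESeq2 adjusted p 0.675) and an interval from -0.47 to 0.23. The intervals reach 1.27-fold in the positive direction for Rnf2 and 1.39-fold in the negative direction for Ring1. Pcgf6 (ENSMUSG00000025050), the PCGF protein that defines this variant of the complex, had 0.24 with an SE of 0.096 in the authors' deposited table (DESeq2 adjusted p 0.0443). Of the 7 subunits past the threshold, Pcgf6 was the nearest to it.

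The paralogs Rybp and Yaf2 stood on opposite sides of 0. Yaf2 (ENSMUSG00000022634) had the strongest difference of all subunits, a log2 fold change of -1.73 with an SE of 0.14 in the authors' deposited table (DESeq2 adjusted p 4.12e-31). The level on the higher side was 3.32 times that on the lower, with a 95% interval from 2.73 to 4.04. Yaf2 ranked 124 of 17110 genes by p-value and 1334 by absolute fold change in the authors' deposited table. Rybp (ENSMUSG00000072872) had 0.20 with an SE of 0.065 in the authors' deposited table (DESeq2 adjusted p 0.0108), a fold of 1.15 with a 95% interval from 1.05 to 1.25. The log2 fold changes of the paralogs were 1.93 apart, and their intervals did not overlap. A test of that difference was not made.

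The chromatin-binding subunits were L3mbtl2 and Cbx3. L3mbtl2 (ENSMUSG00000022394), which carries malignant brain tumor repeats, had a log2 fold change of 0.38 with an SE of 0.13 in the authors' deposited table (DESeq2 adjusted p 0.0121). The 95% interval ran from 1.09-fold to 1.54-fold. Cbx3 (ENSMUSG00000029836) was nearest to 0 of all subunits, at -0.030 with an SE of 0.12 in the authors' deposited table (DESeq2 adjusted p 0.89). The interval of Cbx3 ran from -0.27 to 0.21. Cbx3 has 8 pseudogenes by name in GENCODE M21 and Rybp has 1, so reads of these genes may be shared with copies. L3mbtl2 and Rnf2 overlap the coding genes Chadl and Trmt1l on the other strand, and no source used here states whether counting used strand. On the same strand, Max overlaps Gm47218, Rnf2 overlaps Gm36527, and Rybp overlaps Gm44044 and Gm44045, none annotated as coding. Strand would not separate these. L3mbtl2 and Rybp also overlap the pseudogenes Gm18284 and Gm18422 on the other strand.

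The positive calls other than Mga depended on where the fold changes were centred. In the authors' deposited table, the median of the 76 ribosomal protein genes was 0.093 on the log2 scale. With that value as the zero point, L3mbtl2 (recomputed adjusted p 0.0725), Rybp (0.238), Max (0.242) and Pcgf6 (0.27) lost their calls, and 3 of 10 subunits stayed past the threshold: Mga, E2f6 and Yaf2. Centring on the median of all genes, a shift of 0.0097, cost the call of Pcgf6 alone (recomputed adjusted p 0.0559). Of all 17110 genes, 5211 passed the threshold as deposited, 5198 with the median of all genes as zero point and 5372 with the ribosomal zero point. The 3 of 10 subunits are to be read beside that last count. The positive share of all calls was 47.8% as deposited and 34.7% with the ribosomal zero point.

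**Figure D2:**
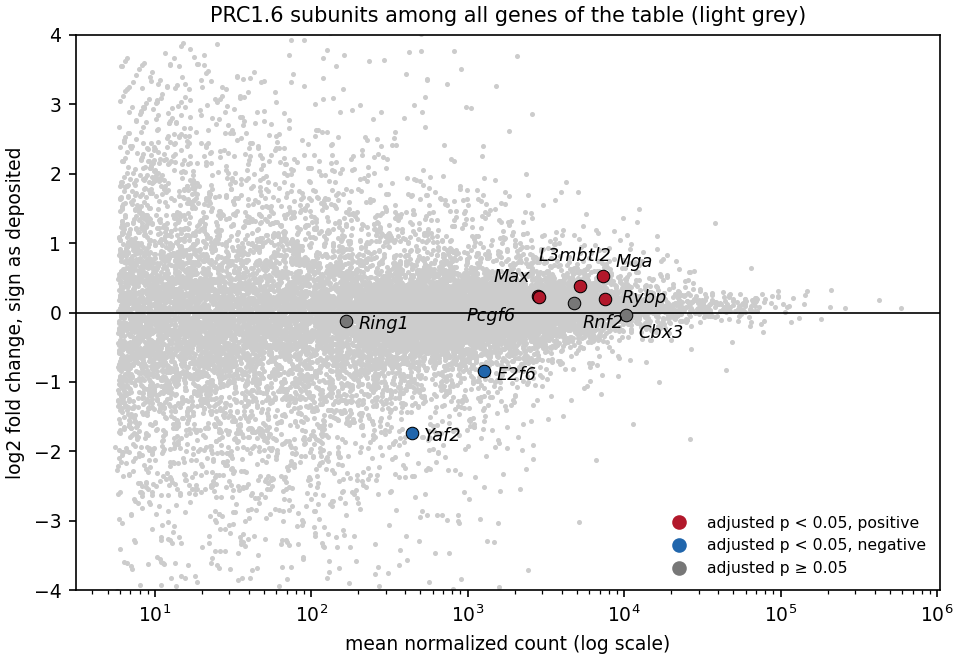
Log2 fold change (vertical axis, sign as deposited) against mean normalized count (horizontal axis, log scale) for all 17110 genes in light grey and the 10 subunits in colour, with 179 genes beyond 4 on the vertical axis not drawn. Yaf2, at -1.73 with a mean count of 438, and E2f6, at -0.85 with 1274, are the lowest subunits, and the others lie between -0.12 and 0.53.

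The SE of the subunits did not follow their counts in a simple order. The mean normalized count of the subunits in the authors' deposited table ran from 167 for Ring1 and 438 for Yaf2 to 10220 for Cbx3. Of genes within a factor of 2 of a subunit's mean count in the authors' deposited table, between 28.3% (around Cbx3) and 38.5% (around Ring1) passed the threshold. The SE of Ring1, 0.18, was the largest of the 10 in the authors' deposited table, and that of Rybp, 0.065, was the smallest. Cbx3 had the highest count but an SE of 0.12 in the authors' deposited table, above that of Mga, Max and Pcgf6.

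Levels were set against each other per length, as the mean normalized count per kb of the longest coding transcript in GENCODE M21. These levels are means over all libraries, with no spread over samples. Cbx3, whose protein also serves heterochromatin outside this complex, was highest at 5410 per kb. Next came a close group of 5: Rybp at 1681, Rnf2 at 1505, L3mbtl2 at 1504, Max at 1474 and Pcgf6 at 1301 per kb. E2f6 at 527.1 and Mga at 525.3 per kb formed a pair below them. Yaf2, the subunit with the strongest negative fold change, came next at 261.6 per kb, and Ring1 came last at 82.2 per kb. The median gene with a coding length stood at 193.4 per kb, so 9 of the 10 subunits were above it and Ring1 was below. The order depends on the length taken. With the median length of all coding transcripts, Rnf2 left the group of 5 and stood at 4355 per kb, next below Cbx3 at 6448. L3mbtl2 at 1764 per kb was then above Rybp, and Mga at 550.1 was above E2f6. Which neighbours in either order differ beyond their spread cannot be said without values per sample.

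Within each pair of paralogs the levels differed. The level of Rnf2 was 18.3 times that of Ring1, and that of Rybp 6.43 times that of Yaf2, per kb of the longest transcript. These ratios are of levels pooled over both groups, and for Rybp and Yaf2, with fold changes of opposite sign, the pooled ratio is that of neither group. With the median length of all coding transcripts in place of the longest, the first ratio became 53 and the other was the same, since the length taken for Rnf2 moved from 3.20 to 1.11 kb. In the pair of Rybp and Yaf2, the member with the lower level was the one with the negative fold change.

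**Figure D3:**
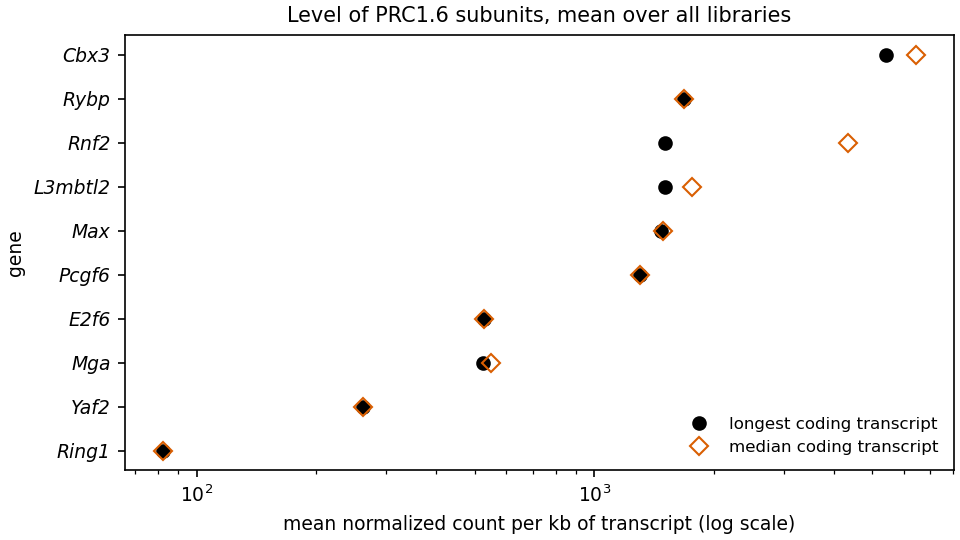
Mean normalized count per kb of transcript (horizontal axis, log scale) for each subunit (vertical axis), with filled circles for the longest and open diamonds for the median coding transcript length. Cbx3 is highest at 5410 and Ring1 lowest at 82.2 per kb, and only Rnf2 moves by more than 1.5 times between the lengths.

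The genes around PRC1.6 were read from lists of related complexes. Of 8 further partners of the complex, 3 were positive past the threshold and 0 negative in the authors' deposited table. That is 37.5%, near the 30.5% of all genes, and their median was 0.17 on the log2 scale. Usp7, a deubiquitinase found with several PRC1 forms, had 0.54 with an SE of 0.084 in the authors' deposited table (DESeq2 adjusted p 3.59e-09). Wdr5, a WD-repeat protein shared with the MLL complexes, had 0.51 with an SE of 0.095 in the authors' deposited table (DESeq2 adjusted p 9.28e-07). The third was Tfdp2, named after its value was seen, at 0.33 with an SE of 0.11 in the authors' deposited table (DESeq2 adjusted p 0.00819). It lost its call with the ribosomal zero point given above (recomputed adjusted p 0.072). Tfdp1 and Tfdp2 both encode DP proteins of E2F dimers. Tfdp1 stood at -0.052 with an SE of 0.14 in the authors' deposited table (DESeq2 adjusted p 0.825), which is short of the threshold.

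Canonical PRC1, the form that holds a CBX chromodomain protein and reads H3K27me3, had 1 positive and 3 negative genes past the threshold among 12 in the authors' deposited table. That is 33.3%, near the 30.5% of all genes, and the median of the 12 was -0.030 on the log2 scale. Phc2, a polyhomeotic subunit, had a log2 fold change of -1.11 with an SE of 0.12 in the authors' deposited table (DESeq2 adjusted p 1.17e-19). Bmi1 had -0.61 with an SE of 0.20 in the authors' deposited table (DESeq2 adjusted p 0.00943), while Pcgf2, its paralog, had 0.34 with an SE of 0.11 in the authors' deposited table (DESeq2 adjusted p 0.00512). With the ribosomal zero point Pcgf2 lost its call (recomputed adjusted p 0.0526).

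Of 14 genes of the other variant PRC1 complexes, 2 were positive and 3 negative past this threshold in the authors' deposited table. That is 35.7%, near the 30.5% of all genes, and their median was -0.048 on the log2 scale. Fbrsl1, an AUTS2 relative, had 0.77 with an SE of 0.11 in the authors' deposited table (DESeq2 adjusted p 5.47e-12). Pcgf5, the PCGF protein of another variant, had -1.14 with an SE of 0.23 in the authors' deposited table (DESeq2 adjusted p 1.01e-05). The casein kinase 2 catalytic genes were split in the authors' deposited table, with Csnk2a1 at 0.18 (SE 0.070, DESeq2 adjusted p 0.0311) and Csnk2a2 at -0.36 (SE 0.096, DESeq2 adjusted p 0.000971). Csnk2a1 lost its call with the ribosomal zero point (recomputed adjusted p 0.362).

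PRC2, which writes H3K27me3, had 4 positive and 0 negative genes past the threshold among 12 in the authors' deposited table. That is 33.3%, near the 30.5% of all genes, where 14.6% passed as positive, and the median of the 12 was 0.26 on the log2 scale. Epop, an accessory subunit of stem cells, had 0.92 with an SE of 0.17 in the authors' deposited table (DESeq2 adjusted p 9.01e-07). Mtf2, which recruits PRC2 to CpG islands, had 0.73 with an SE of 0.088 in the authors' deposited table (DESeq2 adjusted p 5.42e-15). With the ribosomal zero point the count was 4 positive and 2 negative, against 1864 positive and 3508 negative among all 17110 genes.

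Among 10 other partners of MAX and of its network, 3 were positive and 1 was negative past this threshold in the authors' deposited table. That is 40%, against 30.5% of all genes (14.6% positive, 15.9% negative), and their median was 0.037 on the log2 scale. The MYC antagonists Mxi1 and Mxd3 had log2 fold changes of 0.58 (SE 0.19, DESeq2 adjusted p 0.0117) and 0.54 (SE 0.18, DESeq2 adjusted p 0.0108) in the authors' deposited table. Mycl had -0.56 with an SE of 0.18 in the authors' deposited table (DESeq2 adjusted p 0.00878). The ribosomal zero point turned this split to 2 positive and 4 negative genes. It gave 1864 positive and 3508 negative calls among all 17110 genes, so the calls of all genes also turned toward the negative side.

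Of the 7 other E2F factors, 1 was positive and 2 were negative past this threshold in the authors' deposited table. That is 42.9%, against 30.5% of all genes (14.6% positive, 15.9% negative), and their median was -0.077 on the log2 scale. E2f2, an activator, had 0.89 with an SE of 0.14 in the authors' deposited table (DESeq2 adjusted p 8.49e-09). The atypical repressor E2f7 had -0.51 with an SE of 0.13 in the authors' deposited table (DESeq2 adjusted p 0.000428), and E2f5 had -0.50 with an SE of 0.094 in the authors' deposited table (DESeq2 adjusted p 1.62e-06). The value of E2f6, -0.85, was below each of these 7, without a test of those differences.

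Relatives of Cbx3 and L3mbtl2 gave 1 positive and 1 negative call among 4 genes in the authors' deposited table. That is 50%, against 30.5% of all genes (14.6% positive, 15.9% negative), and the median of the 4 was 0.21 on the log2 scale. Cbx1, the gene of HP1β, had 0.41 with an SE of 0.082 in the authors' deposited table (DESeq2 adjusted p 5.15e-06). L3mbtl3, a paralog of L3mbtl2, had -1.71 with an SE of 0.17 in the authors' deposited table (DESeq2 adjusted p 2.04e-22), against 0.38 for L3mbtl2.

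**Figure D4:**
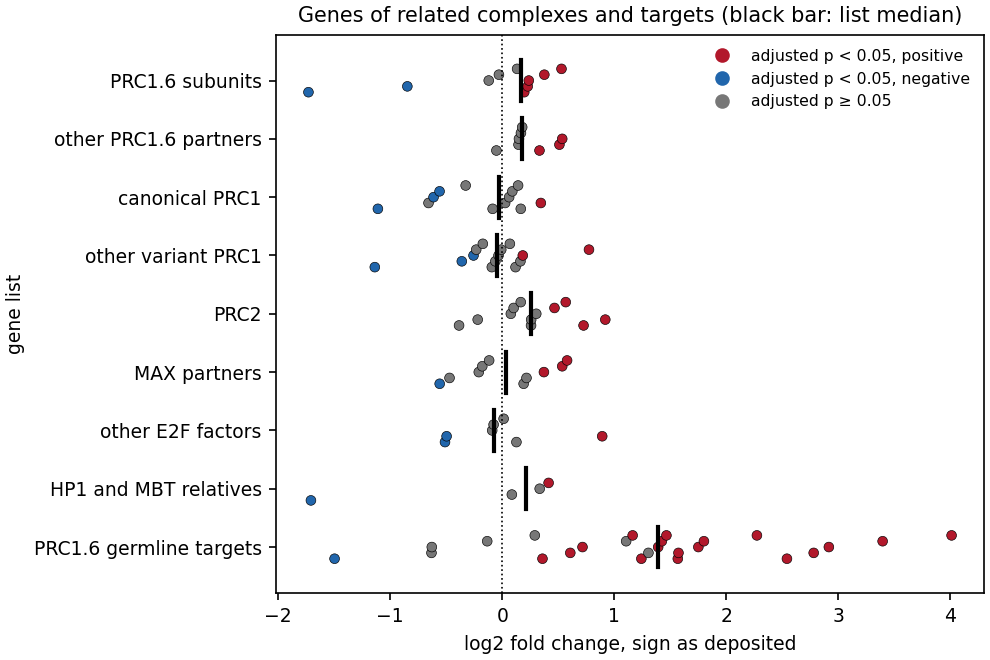
Log2 fold change (horizontal axis, sign as deposited) of each gene in 9 lists (vertical axis), with a black bar at the list median and colour for genes past the threshold. The median of the subunits is 0.16, and that of the germline genes, the highest of the 9, is 1.39.

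Germline genes are the best-known targets of PRC1.6, and 25 of 26 listed had a row. In the authors' deposited table, 18 of these 25 were positive past the threshold and 1 was negative, against 14.6% and 15.9% of all genes. In the authors' deposited table, the median of the list was 1.39 on the log2 scale, and 15 genes were positive past the threshold with a log2 fold change over 1. With the ribosomal zero point, 16 were positive and 1 negative, against 1864 positive and 3508 negative among all 17110 genes. The list was written from general knowledge of the targets, with other results of these data known, and it was not tested as a set.

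Tuba3a, a testis tubulin gene and a classical E2F6 target, had the highest value, 4.01 with an SE of 0.29 in the authors' deposited table (DESeq2 adjusted p 8.26e-41). It has a near-identical copy, Tuba3b, which is not analysed here, and its reads may be shared. Hormad1, a meiotic chromosome axis gene, had 2.92 with an SE of 0.23 in the authors' deposited table (DESeq2 adjusted p 1.43e-33). Tdrkh, a tudor domain gene of the piRNA pathway, was the 1 negative gene past the threshold, at -1.50 with an SE of 0.18 in the authors' deposited table (DESeq2 adjusted p 4.94e-15). Mael and Sycp3 were named after their values were seen: Mael, also of the piRNA pathway, had 2.78 with an SE of 0.24 in the authors' deposited table (DESeq2 adjusted p 7.44e-28). Sycp3, a synaptonemal complex gene, had -0.13 with an SE of 0.22 in the authors' deposited table (DESeq2 adjusted p 0.708), short of the threshold. Of the 7 germline genes with a mean count under 50 in the authors' deposited table, 3 were positive past the threshold. Of the 18 others 15 were, against 14.6% of all genes at any count.

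**Figure D5:**
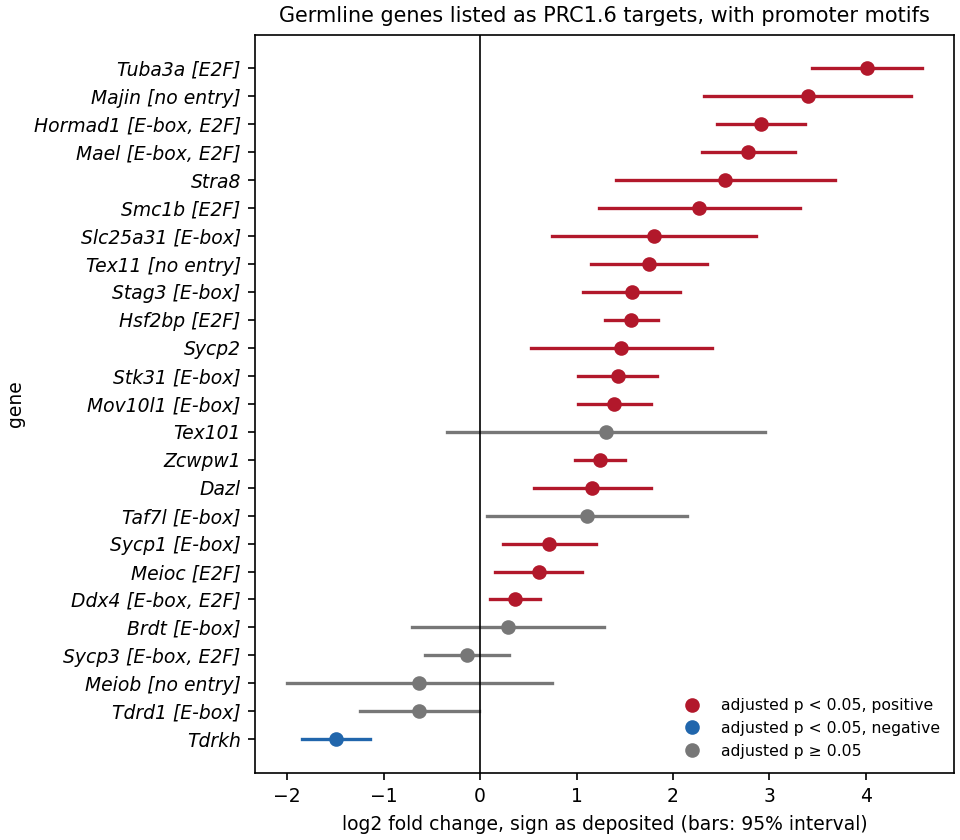
Log2 fold change (horizontal axis, sign as deposited, bars for the 95% interval from the authors' standard error) of the 25 germline genes (vertical axis), with brackets for the E-box or E2F letters found in the promoter window. Tuba3a is highest at 4.01, and Tdrkh at -1.50 is the 1 negative gene past the threshold.

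Promoter letters were read because MGA with MAX and E2F6 recognise DNA directly. The windows were the 250 bases before each start in RefSeq (GRCm38.p6), whereas the submitters' notes name GRCm39, so no deposited value is placed on these coordinates. The letters searched were the E-box CACGTG, which reads the same on both strands, the E2F core TCCCGC with its reverse complement GCGGGA, and the T-box core GGTGTGA on both strands, since MGA has a T-box. Overlapping matches were counted. Of 22 germline genes with a row and an entry, 12 (54.5%) held an E-box, against 6.86% of 27018 genes with an entry and 9.78% of the 11504 that also had a row. The list holds known targets of a complex that reads the E-box, so the E-box share is not independent of the choice of genes. The E2F core was in 8 of the 22 (36.4%), against 33.8% of the 11504. The T-box core was in 2 of the 22 (9.09%), Brdt and Sycp3, against 3.49% of the 11504, and neither gene was past the threshold. Among the 8 subunits with an entry, 0 held an E-box or a T-box core and 2 held the E2F core, E2f6 and Rnf2. Yaf2 and Rybp had no entry.

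The windows below were chosen after their values were seen, to show the promoter of the negative DNA-binding subunit beside those of germline genes with high, near-0 and negative fold changes. Capitals mark E-box, E2F core and T-box core letters.
E2f6, chr12:16810715-16810964 (+ strand): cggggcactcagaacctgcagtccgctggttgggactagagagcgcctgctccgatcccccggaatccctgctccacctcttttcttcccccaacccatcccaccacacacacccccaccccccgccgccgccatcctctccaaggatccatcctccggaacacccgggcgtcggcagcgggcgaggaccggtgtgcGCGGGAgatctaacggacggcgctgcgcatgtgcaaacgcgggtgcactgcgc
Tuba3a, chr6:125286082-125286331 (- strand): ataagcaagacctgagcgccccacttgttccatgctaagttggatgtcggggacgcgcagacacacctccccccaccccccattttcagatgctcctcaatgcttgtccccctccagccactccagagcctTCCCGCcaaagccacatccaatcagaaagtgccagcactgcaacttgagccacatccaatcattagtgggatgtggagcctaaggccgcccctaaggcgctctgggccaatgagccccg
Hormad1, chr3:95559427-95559676 (+ strand): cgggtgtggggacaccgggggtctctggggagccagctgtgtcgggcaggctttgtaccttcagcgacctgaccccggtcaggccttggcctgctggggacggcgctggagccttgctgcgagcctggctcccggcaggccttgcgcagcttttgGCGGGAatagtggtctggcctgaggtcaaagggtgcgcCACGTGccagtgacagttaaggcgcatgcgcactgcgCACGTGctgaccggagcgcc
Mael, chr1:166238745-166238994 (- strand): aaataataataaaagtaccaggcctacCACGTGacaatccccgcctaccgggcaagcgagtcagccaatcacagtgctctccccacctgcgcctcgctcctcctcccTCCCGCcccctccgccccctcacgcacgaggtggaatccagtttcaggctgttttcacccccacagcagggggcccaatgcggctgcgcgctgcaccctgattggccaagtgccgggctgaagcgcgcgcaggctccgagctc
Sycp3, chr10:88459337-88459586 (+ strand): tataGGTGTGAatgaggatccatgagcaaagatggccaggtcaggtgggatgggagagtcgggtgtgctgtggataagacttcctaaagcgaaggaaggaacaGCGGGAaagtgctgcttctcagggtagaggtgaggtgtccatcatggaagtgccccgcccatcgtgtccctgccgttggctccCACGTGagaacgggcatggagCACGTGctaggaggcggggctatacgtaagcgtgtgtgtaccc
Tdrkh, chr3:94412994-94413243 (+ strand): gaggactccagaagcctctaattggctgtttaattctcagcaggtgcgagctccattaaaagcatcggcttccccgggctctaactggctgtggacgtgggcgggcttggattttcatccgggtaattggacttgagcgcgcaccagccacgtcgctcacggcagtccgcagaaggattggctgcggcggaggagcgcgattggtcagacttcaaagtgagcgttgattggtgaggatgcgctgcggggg

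The E2f6 window holds 1 E2F core that begins 53 bases before the start. Hormad1 has E-boxes that begin 57 and 20 bases before the start and an E2F core at 95. Mael has an E-box at 223 and an E2F core at 143, and Tuba3a has an E2F core at 119 and no E-box in this window. Sycp3, which did not pass the threshold, holds both motifs as Hormad1 does, with E-boxes at 64 and 43 bases and an E2F core at 147, and it also has a T-box core near the far end of the window. Tdrkh, with the negative fold change, holds none of the 3 motifs in this window. Of the germline genes with an entry, 8 of 16 that were positive past the threshold held an E-box, and so did 4 of the 6 that were not. A match of letters is a description of the window, not a measured site.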

How the data were processed

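Polyadenylated RNA of 6 samples, 3 DsRed2-positive and 3 DsRed2-negative, was sequenced. The submitters' processing notes list FastQC 0.12.1, Trimmomatic 0.39, STAR 2.7.11b, RSEM 1.3.3, DESeq2 1.45.3 and GRCm39, with no role or order. The formula, reference group and annotation release are not given in the sources used here. The authors' mean normalized count is a signal over all libraries. Fold changes and SE are log2 values as deposited. The statistic the authors deposited is a score, equal to the fold change over its SE within 5.77e-07. The p-value and adjusted p-value are those the authors deposited.

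The 6 columns of the count table match no label and were not used, so edgeR, planned as the main test had they matched, was not run. Intervals are the fold change ± the normal 95% quantile times SE. Centred fold changes were retested with the same SE and Benjamini-Hochberg adjustment (SciPy 1.17.1). On simulated data the only centring tried was on the median of all genes, not the ribosomal zero point. The simulated errors were drawn from the authors' SE, so they cannot show whether that SE is right for these data. Lengths are from GENCODE M21 (GRCm38) by gene ID, for 14055 genes. The members and lists were chosen with earlier results of these data known. Genes named are the subunits and, per list, up to 2 most positive and 2 most negative genes past an adjusted p of 0.05 with a mean count of at least 50. Others were chosen after their values were seen. The labels call the replicates biological and taken on different dates. Whether they were separate cultures is not stated, so p-values measure the spread between these samples.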

Additional observations from a re-analysis of the deposited data

How the results depend on the processing

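All 7 subunit calls (5 positive, 2 negative) were kept with the adjustment recomputed and with a minimum mean count of 50. Neither setting is an independent check. The recomputed adjustment reuses the deposited p-values, and the lowest mean count of a subunit was 167 (Ring1). The count of calls was 6 when centred on the median of all genes, where 5198 of 17110 genes passed. That count dropped to 3 with fold changes centred on the ribosomal protein genes, where 5372 of 17110 genes passed. It also dropped to 3 at an adjusted p under 0.01, which 22.9% of all genes passed. An absolute log2 fold change over 0.5 left 3, against 21.5% of all genes, and one over 1 left 1, against 13.3%. The stricter limits themselves produce these last 3 drops. The calls of Mga, E2f6 and Yaf2 were kept under both centrings, the minimum mean count and the recomputed adjustment. The 4 partners of MAX past the threshold, among 10 listed, dropped to 1 at an adjusted p under 0.01, against 22.9% of all genes. The median of the subunits lay between 0.072 and 0.16 under these settings. Values of single genes were read under the centrings, the minimum count and the recomputed adjustment. Of these, 140 kept direction and call, 8 lost the call and 0 changed sign. The minimum count and the recomputed adjustment leave every fold change as deposited, so a sign could change only under the centrings. Every loss came under a centring, and with the median of all genes only Pcgf6 lost its call. Centring subtracts the same constant from every fold change and keeps the SE, so small positive values lose their call by arithmetic. Which zero point is right was not tested.

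Alternatives that need counts per sample were not run: edgeR with TMM or DESeq2 size factors, the count filter, DESeq2 and leaving out each replicate. No paired analysis was possible because no column of counts carries a replicate number. Whether 1 library decides a value is therefore not answered here, and depth limits low genes through the authors' SE alone.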
